A study of Rattus norvegicus with 547 samples.

Results

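The heat shock genes Hspb1, Hspa1, Dnajb1 and Hsph1 were followed through 5 probe sets of a rat expression array, out of 31042 probe sets measured. They were 1367577_at for Hspb1, 1368247_at and 1370912_at for Hspa1a/Hspa1b, 1388722_at for Dnajb1 and 1388898_at for Hsph1. They were chosen because they were among the largest rises between hepatocytes at the start of incubation and hepatocytes cultured with solvent, so that rise is described here without a test. The pairing of probe sets with genes came with the choice, and a platform table was not used here to check it. The cells were hepatocytes of male Wistar rats in sandwich culture, with RNA hybridized to 547 arrays. Of these arrays, 257 held cells treated for 24 h with 1 of 29 compounds, 256 held cells kept for 24 h with solvent (solvent control), and 34 held cells collected on the morning after isolation with neither solvent nor compound (T0). Each compound was used at a low, a middle and a high concentration, except that dehydroepiandrosterone at its high level was not analysed here, which left 86 comparisons of compound and concentration. The submitters' table classes 9 compounds as genotoxic (GT), 11 as non-genotoxic (NG) and 9 as non-carcinogens (NC). Treated and solvent arrays that share a replicate number were taken as 1 dish, since the design text states that treated and solvent wells shared 6-well dishes. Most groups had 3 dishes from 3 rats, while prazosin and 3-methylcholanthrene at their high levels had 2. Neither the age of the rats nor the solvent is stated in the labels, and hepatocyte marker genes were not analysed here because probe sets could not be paired with them.

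Heat shock genes encode molecular chaperones, proteins that hold unfolded proteins in solution or refold them. Their transcription is driven in many tissues by heat shock factor 1, which binds repeats of the letters nGAAn in promoters when unfolded proteins accumulate. Isolation of hepatocytes with collagenase and their transfer to culture are known to disturb the expression of stress genes. HSPB1 is a small heat shock protein that holds denatured proteins and binds actin, and HSPA1 is the stress-inducible Hsp70 that refolds them with ATP. DNAJB1 is the Hsp40 partner that delivers clients to Hsp70 and starts its ATPase, and HSPH1 is an Hsp110 protein that exchanges the nucleotide of Hsp70. Hspa1a and Hspa1b are near-identical copies, so their 2 probe sets were read as measures of the pair and not of either copy.

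Because heat shock factor sites are defined by their letters, the bases upstream of the start of each gene were read from RefSeq promoters of the rat build GRCr8, where 4 of the 5 gene symbols had an entry. For the genes that held a match, the 250 bases before the start are shown in the direction of the gene. Matches to GAANNTTC or TTCNNGAA are in capitals, where N is any base. Each of these motifs reads the same on both strands, and overlapping matches are joined.
Hspb1 upstream (chr12:26432302-26432551, minus strand): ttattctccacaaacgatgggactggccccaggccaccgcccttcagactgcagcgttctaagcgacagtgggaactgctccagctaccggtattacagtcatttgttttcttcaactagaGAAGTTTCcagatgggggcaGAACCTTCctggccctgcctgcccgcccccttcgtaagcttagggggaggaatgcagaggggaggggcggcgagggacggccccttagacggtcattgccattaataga
Hsph1 upstream (chr12:10427118-10427367, plus strand): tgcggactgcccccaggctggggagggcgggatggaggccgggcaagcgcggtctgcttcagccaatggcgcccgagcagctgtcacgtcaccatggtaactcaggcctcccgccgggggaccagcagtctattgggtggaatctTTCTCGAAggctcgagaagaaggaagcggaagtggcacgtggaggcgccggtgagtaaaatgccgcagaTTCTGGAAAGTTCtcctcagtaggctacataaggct
Dnajb1 upstream (chr19:41431142-41431391, minus strand): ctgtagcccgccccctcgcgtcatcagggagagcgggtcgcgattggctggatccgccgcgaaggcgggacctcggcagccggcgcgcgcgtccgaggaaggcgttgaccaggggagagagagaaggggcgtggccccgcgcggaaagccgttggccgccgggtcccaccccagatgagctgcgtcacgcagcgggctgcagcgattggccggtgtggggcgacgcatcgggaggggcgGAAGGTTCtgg

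The Hspb1 window held 2 matches, GAAGTTTC and GAACCTTC, whose first bases lay 129 and 109 bases before the start. The Hsph1 window held TTCTCGAA at 105 bases before the start and, at 36 bases, TTCTGGAAAGTTC, in which 2 of the 8-letter matches overlap. That run is also a match to the longer motif TTCNNGAANNTTC. The Dnajb1 window held 1 match, GAAGGTTC, at 11 bases before the start. At least 1 of the 8-letter motifs occurred in 13.5% of the 33469 promoter windows of the same length, and TTCNNGAANNTTC or its reverse complement GAANNTTCNNGAA in 0.663%. The window of Hspa1a (chr20:3859506-3859755, plus strand), not shown, held these letters nowhere. Its annotated start was not checked, bases farther upstream and inexact copies were not searched, and Hspa1b had no entry. The missing letters therefore do not show that the Hspa1 pair lacks such sites. A match describes the letters only, and binding was not measured here.

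Array medians ranged between 5.24 and 5.76 on the log2 scale, and 145 arrays (11 of them T0 arrays) lay in a batch with medians under 5.4. In 16 arrays the spiked hybridization controls gave no signal. In all, 5 arrays stood apart, with a median correlation with all other arrays of 0.306 to 0.923, against at least 0.941 for the rest. They were treated replicate 1 of acetaminophen at the high level (0.306), control replicate 1 of dehydroepiandrosterone at the middle level (0.842), T0 replicate 19 (0.902), control replicate 2 of N-Nitrosopiperidine at the high level (0.902) and treated replicate 3 of Methylendianiline at the high level (0.923). Differences and correlations that rest on these arrays are given below with and without them.

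Hspb1 stood highest over T0 of all 31042 probe sets after 24 h with solvent. Its level averaged 12.69 ± 0.79 in solvent controls (SD, n = 87 means of a compound and replicate number) and 9.33 ± 1.04 in T0 cells (SD, n = 34), a difference of 3.36 on the log2 scale or 10.3-fold. The rise of 1367577_at ranked 1 among all probe sets, and the median difference over all of them was 0.00. The Hspa1 probe set 1368247_at averaged 12.80 ± 0.47 in solvent controls and 10.33 ± 1.28 in T0 cells, a difference of 2.47 and rank 2. For 1370912_at, the other Hspa1 probe set, the values were 11.64 ± 0.68 in solvent controls and 9.30 ± 1.38 in T0 cells, a difference of 2.34 and rank 4. Dnajb1 (11.48 ± 0.67 in solvent controls and 9.44 ± 0.44 in T0 cells, difference 2.04) ranked 7. Hsph1 (11.03 ± 0.72 in solvent controls and 9.04 ± 0.49 in T0 cells, difference 1.99) ranked 10. These differences describe the choice of the probe sets. The unnamed probe set 1383302_at, at rank 11 just below Hsph1, differed by 1.98. Within the batch of lower array medians the 5 differences were 3.26, 2.10, 2.05, 2.02 and 2.18 in the same order, and within the other batch they were 3.41, 2.64, 2.47, 2.07 and 1.93. In cultures of whole wells, more RNA per cell and a larger share of cells that hold it cannot be told apart.

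The separation between single arrays differed by gene. Of the 256 control arrays, 249 lay above the highest T0 array for Hspb1, 251 for Dnajb1 and 250 for Hsph1. For the Hspa1 probe sets 237 (1368247_at) and 216 (1370912_at) did so, and their T0 arrays were spread the most widely. The 34 T0 values of 1368247_at ranged between 7.79 and 12.08 with a median of 10.82, and those of 1370912_at between 6.52 and 10.87 with a median of 9.77. T0 replicates 7 to 12 held the 6 lowest values of 1368247_at, between 7.79 and 8.18, and had between 7.36 and 7.99 for Hspb1. In T0 replicates 20 to 23 the Hspb1 level was 11.13, 10.69, 11.16 and 11.04, and 1368247_at stood at 12.08, 11.35, 11.67 and 11.75. Dnajb1 was the least variable at T0, with an SD of 0.44 and a range of 8.46 to 9.97. The lowest of these values was T0 replicate 19, which stood apart, and without the arrays that stand apart the difference of Dnajb1 was 2.03 and its rank 8. The labels do not link T0 arrays to rats or to the cultures of a compound.

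**Figure D1:**
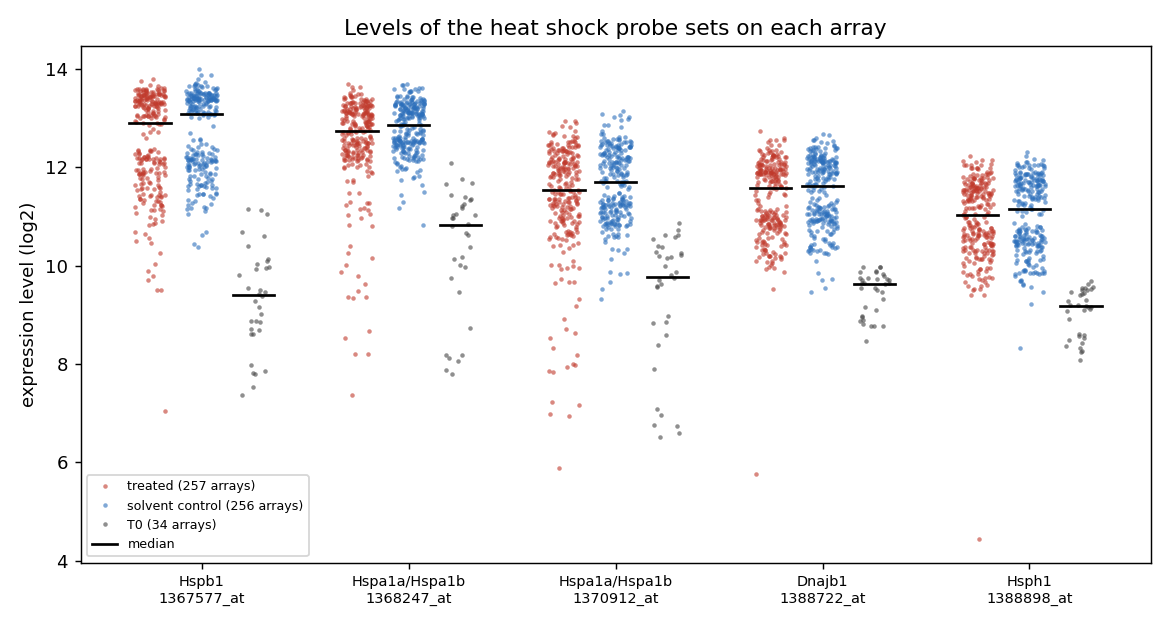
Expression level (log2 scale, vertical axis) of each heat shock probe set on every array, in 257 treated, 256 solvent control and 34 T0 arrays, with black bars at the medians. Controls and treated arrays lie mostly above the T0 arrays, with a tail of low treated values for both Hspa1 probe sets, and the single lowest treated point of each probe set is the acetaminophen array that stood apart.

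Solvent controls did not share 1 level. In the order of the deposited table, 13 compounds stand before the block of T0 replicates 7 to 23 and 16 stand after it. This split was first set at the largest gap between the sorted control means of Hspb1, and was then seen to fall at that block. For each of the 5 probe sets, the control means of all 13 earlier compounds lay below those of all 16 later compounds. Hspb1 control means lay between 11.23 and 12.27 in the earlier compounds and between 13.14 and 13.72 in the later ones, with a gap of 0.87 between the sets. The gap was 0.27 for 1368247_at, 0.33 for 1370912_at, 0.41 for Dnajb1 and 0.39 for Hsph1. Control arrays of the earlier compounds averaged 11.87 for Hspb1, 12.34 for 1368247_at and 10.99 for 1370912_at. The medians of T0 replicates 1 to 6 were 9.22, 11.29 and 10.47 in the same order. Inside 1 group of control arrays the median SD was between 0.11 (Dnajb1) and 0.19 (1370912_at), against SDs of the group means of 0.48 (1368247_at) to 0.80 (Hspb1). Nifedipine had the lowest control means of the series for 1368247_at (11.73), 1370912_at (10.28) and Dnajb1 (10.24), and Thioacetamid for Hspb1 (11.23) and Hsph1 (9.75). The array batch of lower medians held 11 of the 117 control arrays of the earlier compounds and 56 of the 139 of the later ones. Its part in the split was not tested. What the order of the table stands for is not stated. The part of RNA quality was not tested, and the GAPDH signal of the 3′ minus the 5′ control probe set had a median of 0.48 in the earlier controls and 0.41 in the later ones. Each treated array was set against the control with its replicate number, taken as its dish. A shift common to both arrays cancels in the comparisons that follow. In the values this pairing was weak, with mean correlations of deviations of 0.0438 for the same number and -0.0195 for different numbers.

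**Figure D2:**
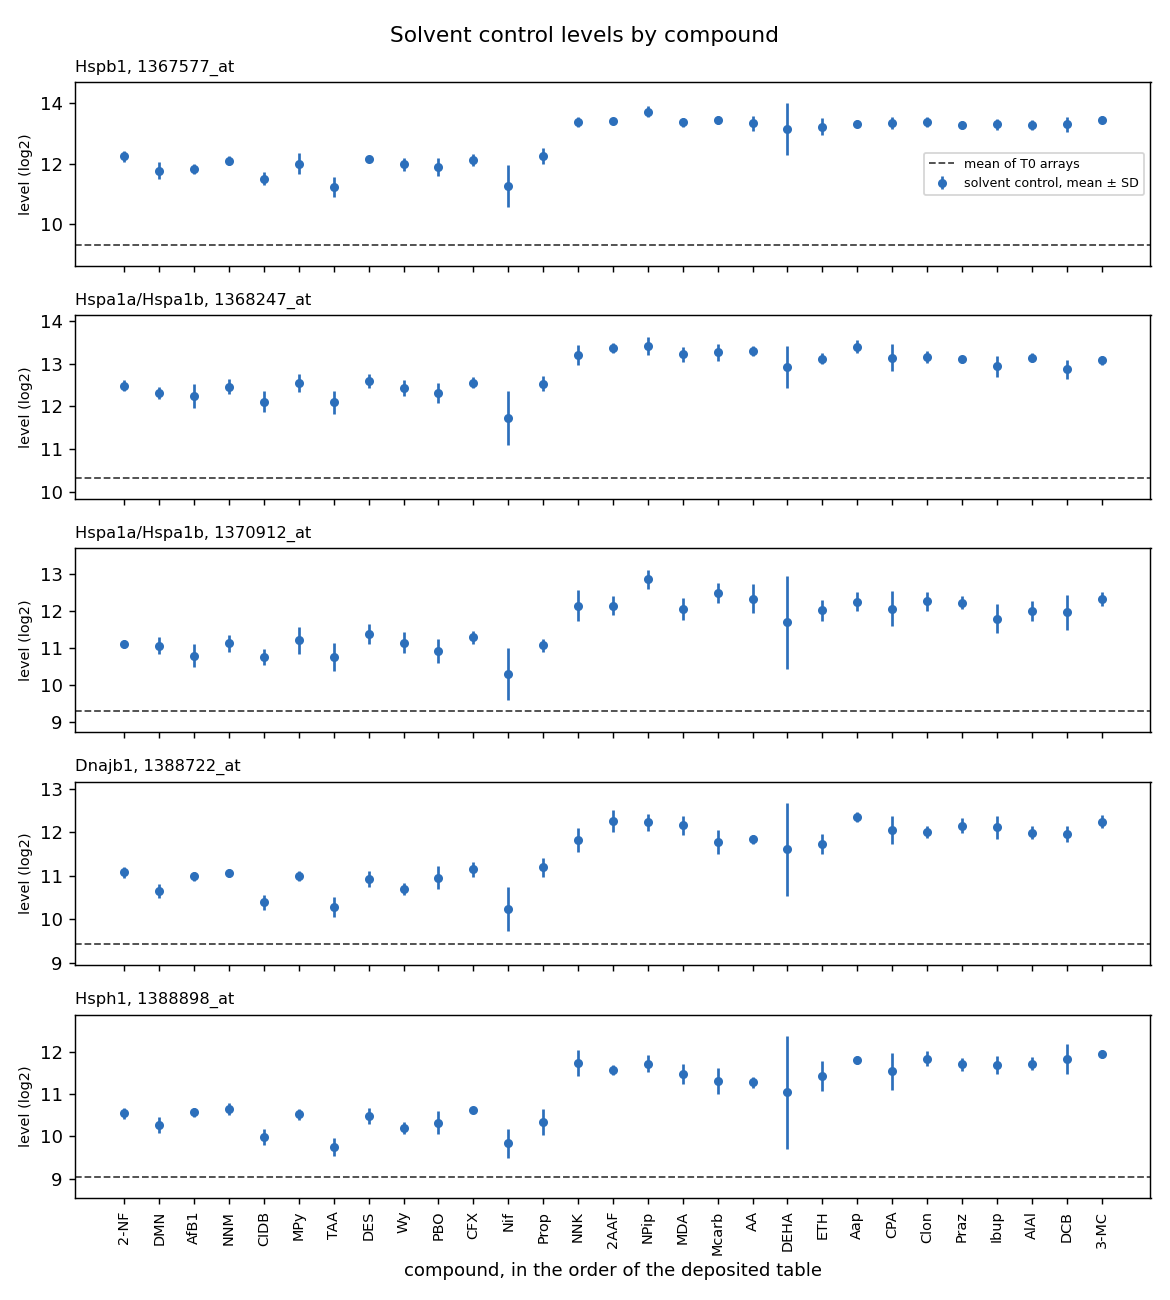
Mean level (log2 scale) of each heat shock probe set in the solvent controls of each compound, in the order of the deposited table, with bars of 1 SD over the control arrays and a dashed line at the mean of the 34 T0 arrays. In every panel the 13 compounds on the left lie below the 16 on the right, and the wide bar of dehydroepiandrosterone (DEHA) contains the control array that stood apart.

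Falls of these probe sets in treated cells were called far more often than rises. Of 430 tests (5 probe sets in 86 comparisons), 39 were falls and 3 were rises at an adjusted p under 0.05, from limma on dish differences with Benjamini-Hochberg adjustment over all 31042 probe sets. The falls made up 9.07% of the tests, where 1.48% of all probe sets and comparisons were falls and 1.25% were rises. That share counts the Hspa1 pair through 2 probe sets, and for Hsph1 alone it was 1.16%. Among probe sets with a mean level of at least 5, a range that holds all 5 members, the share of falls was 2.40%. The median difference was -0.10 over the 430 values and 0.01 over all probe sets, and 65.8% of the member values were below 0, against 48.6% of all. These comparisons share their solvent control arrays with the contrast that chose the probe sets. Probe sets chosen for high solvent controls can lean toward falls through that choice alone, while the shares over all probe sets carry no such choice. The size of this lean was not tested, so the excess of falls cannot be credited to treatment alone.

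The largest called falls were those of Hspa1. Both Hspa1 probe sets fell together in 9 comparisons and 1 of them alone in 3. At least 2-fold were 13 of their falls, a number that counts the gene pair through 2 probe sets. Called or not, differences of -1 or lower numbered 6 for Hspb1, 7 for 1368247_at, 8 for 1370912_at and 1 each for Dnajb1 and Hsph1. Each of these numbers includes acetaminophen at its high concentration, which rests on an array that stood apart. The probe set 1368247_at fell in 10 comparisons and 1370912_at in 11. Hspb1 fell in 9, Dnajb1 in 8 and Hsph1 in 1. Every one of the 39 falls was lower in treated cells in every dish, and in 37 of them the treated arrays did not overlap the control arrays. These counts follow largely from the call itself, since few dishes must agree to be called. The same shares among called falls of all probe sets were not computed, nor was the share of 2-fold falls over all probe sets. Calls came from 14 of the 29 compounds and 18 of the 86 comparisons, and 16 of the falls belonged to Wy-14643 and nifedipine. The 13 compounds that stand earlier in the table held 32 of the 39 falls, in 195 of the 430 tests. Over all probe sets the share of falls was 1.79% in the earlier compounds and 1.23% in the later ones. Leaving out replicate 2 of every group, which leaves 2 dishes in most comparisons, reduced the falls to 21.

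**Figure D3:**
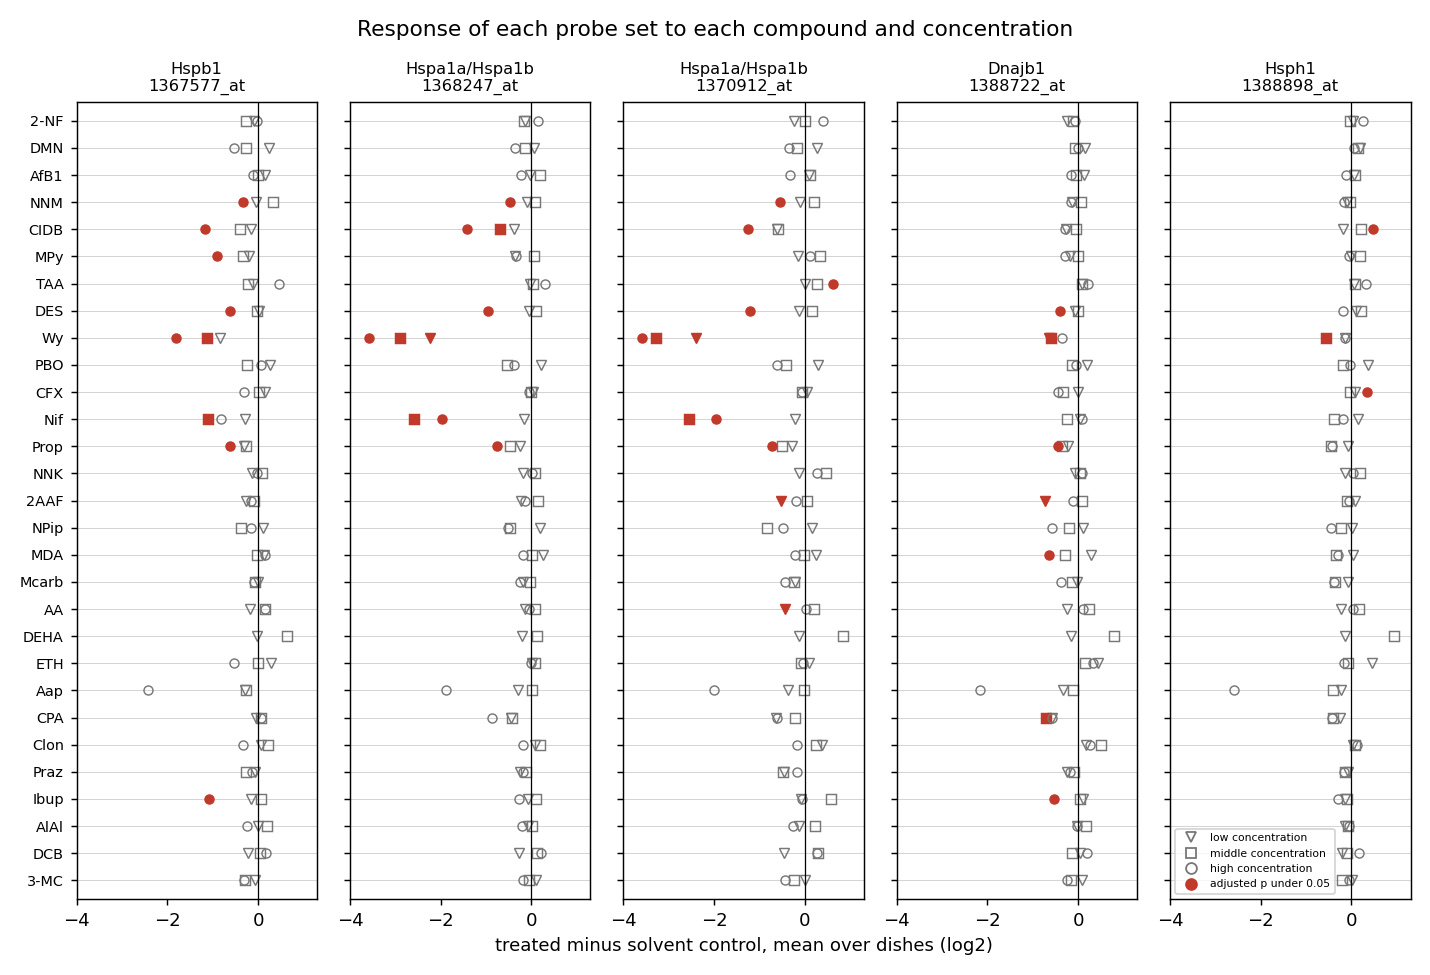
Mean treated minus solvent control difference (log2 scale, horizontal axis) of each heat shock probe set for each compound (rows) at the low (triangle), middle (square) and high (circle) concentration, with filled red symbols where limma's adjusted p was under 0.05. The filled symbols of the Hspa1 panels reach -3.60 for Wy-14643 (Wy), and the open symbols near -2 in the acetaminophen row (Aap) come from the array that stood apart.

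Wy-14643, an agonist of the lipid-sensing receptor PPARα, lowered both Hspa1 probe sets at each of its 3 concentrations, and its falls at 180.14 and 540.43 µM were the largest called for Hspa1 in the series. At 60.05 µM the level of 1368247_at was 10.01, 10.25 and 10.41 in treated cells, against 12.37, 12.54 and 12.45 in their solvent controls. At 180.14 µM it was 9.87, 9.37 and 9.63 in treated cells, against 12.23, 12.53 and 12.81 in the controls. At 540.43 µM it was 9.80, 8.20 and 8.21 in treated cells, against 12.21, 12.29 and 12.47 in the controls. Every treated array thus lay below every control array, and dish 1 at the highest concentration stayed nearest to its control. The differences were -2.23 ± 0.28, -2.90 ± 0.28 and -3.59 ± 0.28 from the low to the high concentration (limma SE, 3 dishes each, adjusted p 0.00119, 0.000188 and 4.21e-06). The largest is a 12-fold lower level. The other Hspa1 probe set, 1370912_at, gave -2.40, -3.29 and -3.60 (SE 0.28 each, adjusted p 0.000585, 6.94e-05 and 3.64e-06). By the size of the fall among all 31042 probe sets they ranked 2 (1370912_at) and 4 (1368247_at) at 60.05 µM. At 180.14 µM they ranked 3 (1370912_at) and 6 (1368247_at), and at 540.43 µM they ranked 17 (1370912_at) and 19 (1368247_at).

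Hspb1 fell with Wy-14643 by smaller amounts. At 540.43 µM its level was 10.90, 9.88 and 9.78 in treated cells, against 12.03, 11.94 and 12.005 in the controls, a difference of -1.80 ± 0.19 (adjusted p 5.62e-05). At 180.14 µM the difference was -1.13 ± 0.19 (adjusted p 0.00774), and at 60.05 µM it was -0.83 ± 0.19 with an adjusted p of 0.0526. Dnajb1, the Hsp40 partner, fell by 0.65 at 60.05 µM and by 0.60 at 180.14 µM (SE 0.12 each, adjusted p 0.0142 and 0.0170), and its difference at 540.43 µM was -0.35 with an adjusted p of 0.0653. Hsph1 fell at 180.14 µM only, by 0.56 ± 0.11 (adjusted p 0.0184), and its differences at 60.05 and 540.43 µM were -0.15 each. In counts, 3 of the 5 probe sets fell at 60.05 µM, 5 at 180.14 µM and 3 at 540.43 µM, where 0.921%, 2.11% and 8.51% of all probe sets fell. At 180.14 µM the calls of Dnajb1 and Hsph1 were each lost in 5 alternatives (adjusted p 0.0589 to 0.462 for Dnajb1 and 0.0555 to 0.650 for Hsph1), and that of Hspb1 without replicate 2 or 3 (0.184 and 0.111). The Dnajb1 call at 60.05 µM was lost in 3 (0.0827 to 0.390). The treated Hspa1 levels lay inside the range of the T0 arrays in all 3 dishes of each concentration. That range is wide and also held 19 of the 256 control arrays of the series for 1368247_at and 40 for 1370912_at.

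In the same dishes the difference of 1368247_at minus that of Dnajb1 was -1.58 ± 0.11, -2.30 ± 0.29 and -3.24 ± 0.75 (SD over 3 dishes) from the low to the high concentration, a gap that was not tested. The Hspa1 calls at 180.14 and 540.43 µM held under all 10 alternative settings, while those at 60.05 µM were lost without replicate 2 (adjusted p 0.0940 for 1368247_at and 0.0691 for 1370912_at). Control replicate 2 at 60.05 µM had a GAPDH 3′ minus 5′ signal of 2.32, against 0.37 to 0.57 on the other 5 arrays of that concentration. Its part in the result was not tested, and without replicate 2 the difference of 1368247_at was -2.20. At 540.43 µM the GAPDH signal was 0.678 to 0.757 on treated and 0.513 to 0.590 on control arrays, and the median correlation with all other arrays was 0.969 to 0.971 on treated and at least 0.975 on control arrays. The array medians were 5.47 to 5.49 on treated and 5.43 to 5.46 on control arrays. The part of these quality measures, which did not overlap, was not tested.

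Nifedipine, a calcium channel blocker of the dihydropyridine type, lowered both Hspa1 probe sets at 200 and 600 µM. At 6.94 µM the level of 1368247_at was 10.82, 12.36 and 12.73 in treated cells, against 11.90, 11.92 and 12.59 in the controls, and the groups overlapped. At 200 µM it was 8.66, 10.16 and 9.33 in treated cells, against 11.50, 12.75 and 11.64 in the controls. At 600 µM it was 8.53, 9.47 and 9.36 in treated cells, against 10.82, 11.18 and 11.30 in the controls. At 200 µM dish 2 was the highest in both groups, so the difference within the dish was close to those of the others. The differences were -0.17 ± 0.23 (adjusted p 0.999), -2.58 ± 0.23 (adjusted p 0.000335) and -1.98 ± 0.23 (adjusted p 0.00487) from the low to the high concentration. For 1370912_at they were -0.21, -2.56 and -1.95 (SE 0.27 each, adjusted p 0.999, 0.000755 and 0.00972). At 600 µM the probe sets 1368247_at and 1370912_at were ranks 1 and 2 among all probe sets by the size of the fall, and at 200 µM they were ranks 2 and 3.

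The other heat shock genes had smaller differences with nifedipine. Hspb1 fell at 200 µM by 1.097 ± 0.21 (adjusted p 0.0236) and differed by -0.81 ± 0.21 at 600 µM (adjusted p 0.0968). Dnajb1 differed by 0.05, -0.25 and 0.08, and Hsph1 by 0.15, -0.39 and -0.18, from the low to the high concentration, all with adjusted p values of 0.442 or more. Thus 3 of 5 probe sets fell at 200 µM, where 0.944% of all probe sets fell, and 2 of 5 at 600 µM, where 0.126% fell. Treated Hspa1 levels lay in the T0 range in all 3 dishes at both concentrations, and the control levels of 1368247_at at 600 µM did so as well. At 600 µM the GAPDH 3′ minus 5′ signal was 0.328 to 0.393 on treated and 0.431 to 0.557 on control arrays, without overlap. At 200 µM it overlapped, and the median correlation with all other arrays was 0.969 to 0.972 on treated and at least 0.978 on control arrays. The part of these measures was not tested.

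The fall of 1368247_at at 200 µM was called under every alternative, and that of 1370912_at under all but the one without replicate 2 (adjusted p 0.0590). At 600 µM both calls were lost without replicate 2 (adjusted p 0.165 and 0.291) and with trend and robust moderation (adjusted p 0.220 for both), and 1370912_at also without the dish pairing (0.0595) and without replicate 3 (0.0517). The Hspb1 call at 200 µM was lost without the dish pairing (adjusted p 0.426), without replicates 2 and 3 in turn (0.260 and 0.127) and with trend and robust moderation (0.134), and its treated and control arrays overlapped.

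**Figure D4:**
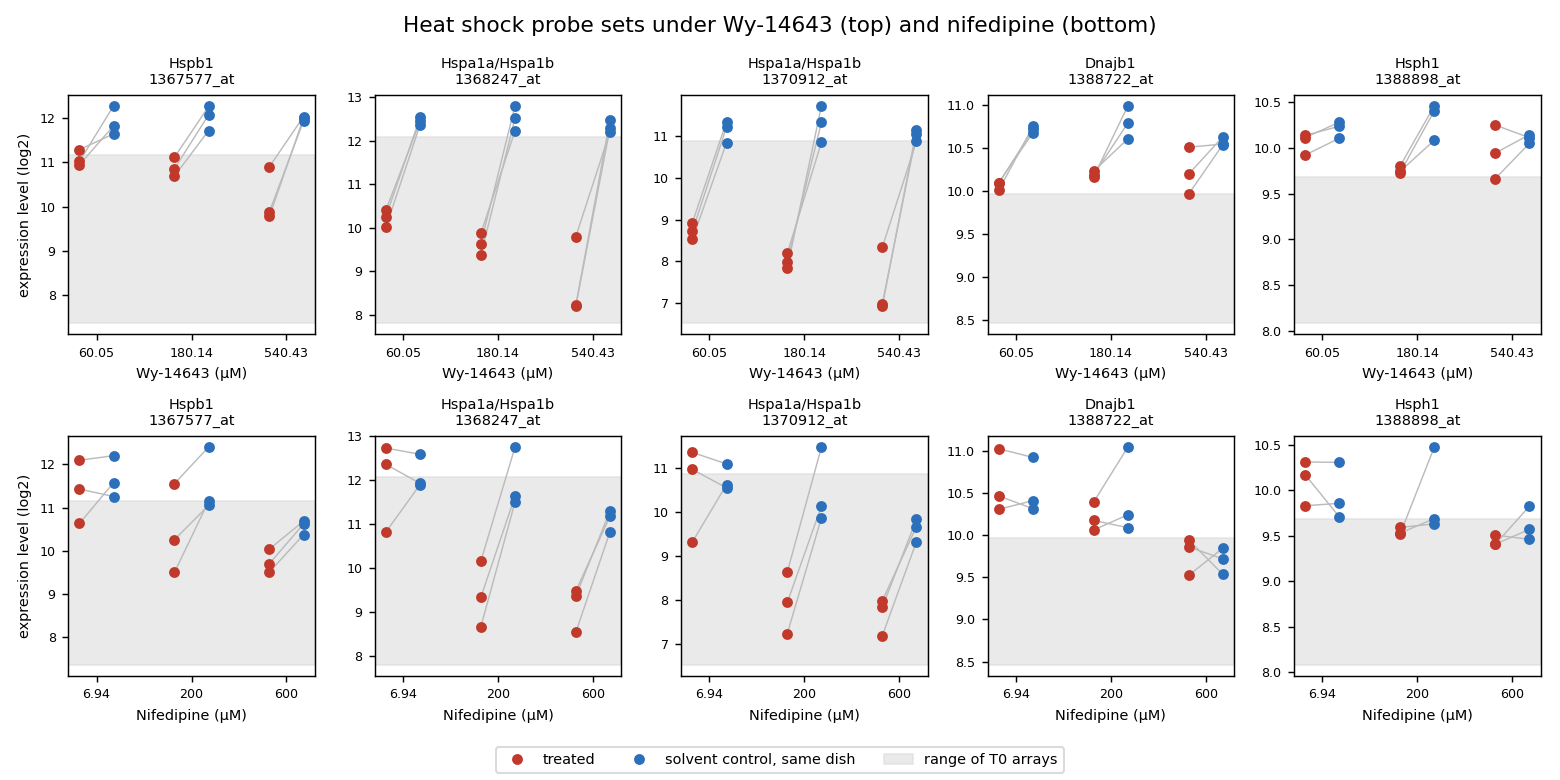
Expression level (log2 scale, vertical axis, scaled separately in each panel) of the heat shock probe sets in treated cells (red) and in solvent controls of the same dish (blue, joined by grey lines) at each concentration of Wy-14643 (top row) and nifedipine (bottom row), with the range of the 34 T0 arrays in grey. Treated Hspa1 levels fall below their controls in all 3 dishes at every Wy-14643 concentration and at 200 and 600 µM nifedipine, while Dnajb1 and Hsph1 stay closer to their controls.

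C.I Direct Black, a dye of the genotoxic class, lowered Hspa1 and Hspb1 at its high concentration of 17.28 µM while Hsph1 rose. The level of 1368247_at was 11.05, 10.96 and 10.81 in treated cells, against 12.51, 12.44 and 12.14 in the controls. The groups were apart, and the difference was -1.42 ± 0.10 (adjusted p 1.65e-06). Hspb1 was 10.50, 10.47 and 10.55 in treated cells, against 11.99, 11.59 and 11.46 in the controls, a difference of -1.17 ± 0.11. The probe set 1370912_at fell by 1.26 ± 0.12, and Dnajb1 differed by -0.29 ± 0.11 (adjusted p 0.121). Thus 3 of 5 probe sets fell, where 3.35% of all probe sets fell. Hsph1 was 10.51, 10.63 and 10.53 in treated cells, against 10.42, 9.84 and 10.01 in the controls, and this rise of 0.47 ± 0.12 (adjusted p 0.0177, where 7.23% of all probe sets rose) was the opposite of its partner Hsp70. The 3 falls held under all 10 alternatives. The rise of Hsph1 was lost after quantile normalization (adjusted p 0.105), without replicate 2 or 3 (0.438 and 0.102) and with the spread pooled over compounds (0.603).

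Diethylstilbestrol, a synthetic oestrogen, lowered 4 of the 5 probe sets at 12.15 µM, where 3.76% of all probe sets fell. The level of 1370912_at was 9.98, 10.58 and 10.42 in treated cells, against 11.30, 11.39 and 11.90 in the controls, a difference of -1.20 ± 0.15 (adjusted p 0.000238). For 1368247_at the difference was -0.95 ± 0.12, for Hspb1 -0.62 ± 0.09 and for Dnajb1 -0.39 ± 0.10 (adjusted p 0.0268). Hsph1 differed by -0.18 ± 0.11 with an adjusted p of 0.417. Both Hspa1 calls held under all alternatives, and the Dnajb1 call was lost without the dish pairing (adjusted p 0.108), without each replicate in turn (0.0873 to 0.313) and with the pooled spread (0.801). With the pooled spread the Hspb1 call was lost as well (0.279).

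Propranolol, a beta-adrenoceptor blocker, lowered the same 4 probe sets at 42.86 µM, where 2.52% of all probe sets fell. The level of 1368247_at was 12.06, 12.15 and 11.14 in treated cells, against 12.58, 12.70 and 12.32 in the controls, with dish 3 the lowest in both groups. Its difference was -0.75 ± 0.12, that of 1370912_at -0.72 ± 0.12 and that of Hspb1 -0.61 ± 0.10 (adjusted p 0.00126, 0.00126 and 0.00131). Dnajb1 fell by 0.44 ± 0.10 (adjusted p 0.0192), and Hsph1 differed by -0.42 ± 0.12 with an adjusted p of 0.0558. Without the dish pairing only 1370912_at was still called among these 4, with adjusted p values of 0.119 for Hspb1, 0.0723 for 1368247_at and 0.341 for Dnajb1. None of the 4 was called with the spread pooled over compounds (adjusted p 0.314 to 0.9999).

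N-Nitrososmorpholine (NNM), a nitrosamine of the genotoxic class, lowered Hspb1 and both Hspa1 probe sets at 152.33 µM by 0.34 ± 0.12, 0.47 ± 0.16 and 0.55 ± 0.19 (adjusted p 0.0414, 0.0347 and 0.0331). In that comparison 18.9% of all probe sets fell. The level of 1368247_at was 12.22, 11.48 and 12.38 in treated cells, against 12.41, 12.52 and 12.55 in the controls, so dish 2 carried most of the difference. In dishes 1 and 2 the treated array was in the batch of higher array medians and the control in that of lower medians. From dish 3 alone the differences were -0.15, -0.17 and -0.25 (adjusted p 0.705, 0.730 and 0.652, with the spread taken from the other concentrations), and without replicate 2 they were -0.14, -0.18 and -0.22.

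Fewer than 3 members fell with each of the other compounds. Ibuprofen, an inhibitor of cyclooxygenases, lowered Hspb1 at 920 µM, where 10.7% of all probe sets fell. Its level was 12.29, 12.33 and 12.27 in treated cells, against 13.13, 13.52 and 13.47 in the controls, a difference of -1.08 ± 0.15 (adjusted p 0.000907) that held under all alternatives. The treated arrays lay closer together than the controls, and both Hspa1 probe sets differed by less (-0.28 and -0.06, adjusted p 0.239 and 0.855).

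Outside Wy-14643, the largest called falls of Dnajb1 came with 2-acetylaminofluorene at its low concentration, cyproterone acetate at its middle concentration and Methylendianiline at its high concentration. With 2-acetylaminofluorene at 0.11 µM the Dnajb1 level was 11.63, 11.89 and 12.10 in treated cells, against 12.68, 12.60 and 12.50 in the controls (difference -0.72 ± 0.14, adjusted p 0.00454). In that comparison 17.7% of all probe sets fell, the median difference over all probe sets was -0.12, and the spiked controls averaged 7.995 on the treated arrays and 3.53 on the control arrays. At the middle and high concentrations of 2-acetylaminofluorene no member was called. With cyproterone acetate at 33 µM, where 2.61% of all probe sets fell, Dnajb1 was 11.66, 11.11 and 11.34 in treated cells, against 12.40, 12.20 and 11.65 in the controls. These groups overlapped by a single pair of arrays, and the difference of -0.72 ± 0.17 (adjusted p 0.0489) was lost without the dish pairing (0.238), after quantile normalization (0.196) and in 4 other settings.

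With Methylendianiline at 9.81 µM, where 12% of all probe sets fell, Dnajb1 was 11.39, 11.79 and 11.68 in treated cells, against 12.02, 12.43 and 12.32 in the controls. Every dish was lower in treated cells by nearly the same amount, and the difference was -0.64 ± 0.13 (adjusted p 0.00712). Treated replicate 3 was an array that stood apart, and without its dish the difference was -0.64 with an adjusted p of 0.0566.

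The other 5 calls, named here after their values were seen, were falls. C.I Direct Black at 5.76 µM lowered 1368247_at by 0.70 (adjusted p 0.0403, where 0.00322% of all probe sets fell, a single probe set, which was this one). Methapyrilene HCl at 44.39 µM lowered Hspb1 by 0.90 (adjusted p 0.00268, where 9.3% fell), and ibuprofen at 920 µM lowered Dnajb1 by 0.52 (adjusted p 0.0202). The probe set 1370912_at fell by 0.52 with 2-acetylaminofluorene at 0.11 µM (adjusted p 0.0110) and by 0.44 with acetamide at 111.10 µM (adjusted p 0.0471, where 0.751% fell). The C.I Direct Black call at 5.76 µM was lost in 6 of 10 alternatives (adjusted p 0.0893 without the dish pairing, 0.144 after quantile normalization and 0.915 or more in the other 4). The acetamide call was lost without each replicate in turn (0.149 to 0.277) and with the pooled spread. The Dnajb1 call of ibuprofen was lost in the same settings (0.0614 to 0.172 without a replicate, 0.125 with the pooled spread). The Methapyrilene HCl call was lost without replicate 2 (0.0849), and that of 1370912_at with 2-acetylaminofluorene without replicate 1 or 3 (0.0550 and 0.0510) and with the pooled spread (0.249).

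Rises were rare and small. Thioacetamid, a liver toxicant, raised 1370912_at at 78.67 µM, where 0.235% of all probe sets rose. Its level was 11.14, 11.28 and 10.87 in treated cells, against 10.65, 10.91 and 9.84 in the controls, a difference of 0.63 ± 0.12 (adjusted p 0.0144). The groups overlapped, and the call was lost without the dish pairing (adjusted p 0.200), without each replicate in turn (0.0694 to 0.107) and in 2 other settings. The other Hspa1 probe set differed by 0.29 (adjusted p 0.227). Cefuroxime, a cephalosporin antibiotic, raised Hsph1 at 679.09 µM by 0.34 ± 0.09 (adjusted p 0.0474, where 4.69% of all probe sets rose). The levels were 10.89, 10.98 and 10.89 in treated cells, against 10.47, 10.67 and 10.62 in the controls, without overlap, and 6 of 10 alternatives did not call it.

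For 15 compounds no member was called at any concentration. In 2 of them a single array made a large difference that was not called. With acetaminophen at its high concentration the 5 differences lay between -2.58 (Hsph1) and -1.89 (1368247_at), with adjusted p values of 0.196 to 0.208. Without the treated array that stood apart they were -0.54 for Hspb1, 0.04 for 1368247_at, 0.05 for 1370912_at, -0.02 for Dnajb1 and -0.27 for Hsph1. With dehydroepiandrosterone at its middle concentration Dnajb1 differed by 0.80 and Hsph1 by 0.95 (adjusted p 0.632 and 0.633), and without the control array that stood apart by 0.07 and -0.01. N-Nitrosopiperidine at its high concentration gave -0.58 for Dnajb1 (adjusted p 0.395), and -0.53 without the control array that stood apart.

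Whether the response depended on concentration was tested as the difference between the highest and the low concentration of each compound. Of 145 such tests 10 were called, 9 of them falls, where 2.38% of all probe sets and compounds were called in either direction. C.I Direct Black, for which 1.32% of all probe sets were called lower and 4.88% higher, had 4 of them, with -1.02 for Hspb1, -1.03 for 1368247_at, -0.65 for 1370912_at and 0.66 for Hsph1 (adjusted p 0.00207, 0.00119, 0.0311 and 0.0294). Diethylstilbestrol, with 0.683% called lower, had 3, with -0.64 for Hspb1, -0.89 for 1368247_at and -1.07 for 1370912_at (adjusted p 0.0335, 0.0213 and 0.0299). The others were Hspb1 with Wy-14643 (-0.97, adjusted p 0.0447, where 5.93% were lower), Hspb1 with ibuprofen (-0.91, adjusted p 0.0353, where 2.71% were lower) and Dnajb1 with Methylendianiline (-0.92, adjusted p 0.0340, and 0.120 without the array that stood apart, where 1.14% were lower). The Hspa1 probe sets missed the threshold for Wy-14643 (-1.36 for 1368247_at, adjusted p 0.0529, and -1.19 for 1370912_at, adjusted p 0.0811), where they had already fallen at the low concentration. For nifedipine the Hspa1 probe sets missed it as well (-1.81 and -1.74, adjusted p 0.131 and 0.162), although neither was called at its low concentration. Without replicate 2 only 1 of these calls was made, without replicate 3 only 2, and with trend and robust moderation 3. With the spread pooled over compounds none of these 10 was called (adjusted p 0.0921 or more).

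No difference between the 3 classes of compounds was called for these genes. At the highest concentration 1368247_at averaged -0.35 ± 0.46 over the 9 GT compounds, -0.72 ± 1.13 over the 11 NG compounds and -0.41 ± 0.64 over the 9 NC compounds (SD). Hspb1 averaged -0.26 ± 0.40 in GT, -0.45 ± 0.95 in NG and -0.40 ± 0.38 in NC compounds. The NG means hold the acetaminophen comparison, and without arrays that stand apart they were -0.57 ± 1.07 for 1368247_at and -0.35 ± 0.63 for Hspb1. Across the 5 probe sets and the 3 pairs of classes limma called 0 of 15 differences, with 0 at an unadjusted p under 0.05 and a lowest adjusted p of 0.929. Over all probe sets 0% were called between GT and NC and between NG and NC, and 0.00322% between GT and NG. The compounds of each class ranged widely, for 1368247_at between -1.42 and 0.15 in GT, between -3.59 and 0.29 in NG and between -1.98 and 0.21 in NC compounds.

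The 2 Hspa1 probe sets moved together over the 29 compounds, and the other members followed them less closely. Differences at the highest concentration gave r = 0.97 and rho = 0.91 between 1368247_at and 1370912_at (permutation p 1e-05 for both, the smallest that 100000 resamples can give, adjusted p 2.35e-05 and 4.44e-05), and r = 0.93 without the 2 farthest compounds. Hspb1 against 1368247_at gave r = 0.77 and rho = 0.69 (adjusted p 8.42e-05 and 9.23e-05), and r = 0.62 without the 2 farthest. Dnajb1 against 1368247_at gave r = 0.44 and rho = 0.57 (adjusted p 0.0478 and 0.00262), and r = 0.76 without the 2 farthest. Leaving out the dishes of arrays that stood apart changed the last pair to r = 0.30 (adjusted p 0.127) with rho = 0.56 (adjusted p 0.00325), and r between Hspb1 and Hsph1 to 0.11 (adjusted p 0.556). These values were computed as part of 40 correlations, and the adjustment covers all of them. They include the correlations in solvent controls, whose values are not independent, so adjusted p values near 0.05 are uncertain. Unadjusted, r of Dnajb1 against 1368247_at had a permutation p of 0.0383.

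Levels of the members in solvent controls are described by their correlations within each of the 2 sets of compounds. The values of a set are the 3 replicate numbers of each compound, and levels differed more between compounds than within them, so they are not independent and no p is given. In the 39 control values of the earlier compounds, r between members lay between 0.71 and 0.97 and rho between 0.61 and 0.94, and r between 0.62 and 0.94 without the 2 farthest values. In the 48 of the later compounds, r lay between 0.27 and 0.85 and rho between -0.11 and 0.74. The lowest were those of 1368247_at against Hsph1, whose r was -0.12 without the 2 farthest values. No r is given over both sets, since their compound means did not overlap.

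**Figure D5:**
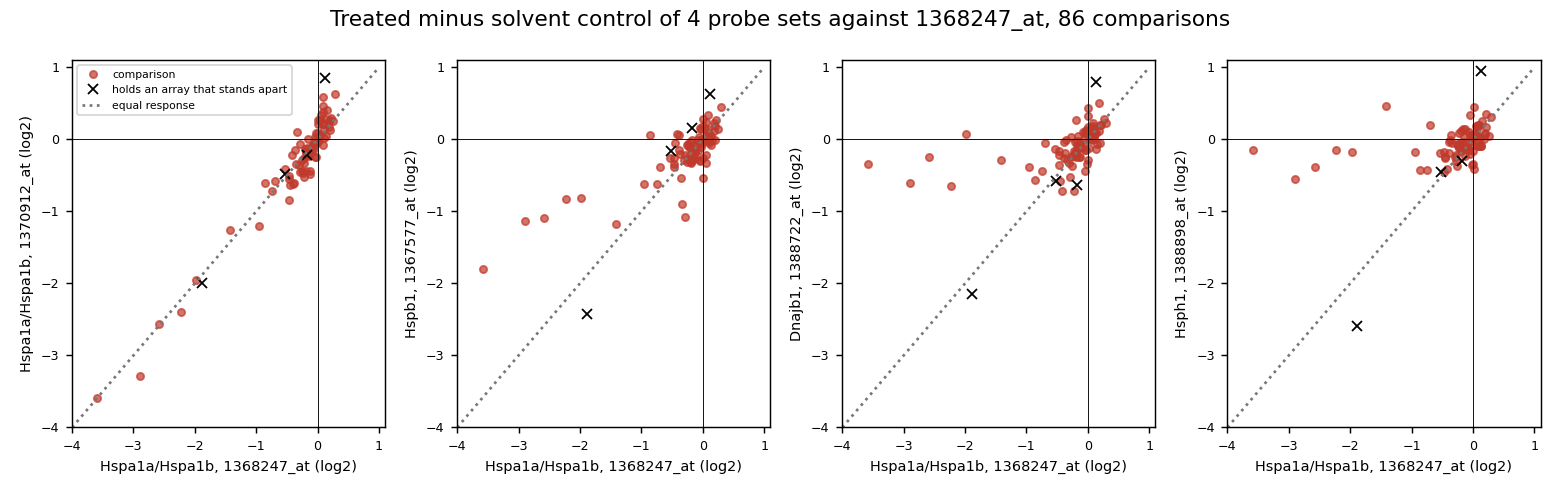
Treated minus solvent control differences (log2 scale) of 4 heat shock probe sets (vertical axes) against those of the Hspa1 probe set 1368247_at (horizontal axes) in the 86 comparisons, with crosses for the 4 comparisons that hold an array that stood apart and a dotted line of equal response. The other Hspa1 probe set lies near the dotted line, Hspb1 lies above it where Hspa1 falls most, and Dnajb1 and Hsph1 lie between -0.65 and 0.08 in the 5 comparisons in which 1368247_at fell furthest among those without a cross.

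The probe sets outside the list that tracked the members most closely were found by the Pearson correlation of mean differences over the 86 comparisons, which share arrays and dishes within a compound, so no p is given. For both Hspa1 probe sets the nearest was 1386947_at, with r = 0.81 to 1368247_at and 0.77 to 1370912_at, and r = 0.80 and 0.76 without the acetaminophen comparison that rests on the array that stood apart. For Dnajb1 it was 1383302_at (r = 0.92, and 0.90 without that comparison), which also stood at rank 11 in the rise after T0. Hsph1 was nearest to 1367455_at with that comparison (r = 0.87) and to 1385620_at without it (r = 0.89), and Hspb1 to 1375173_at (r = 0.79) with it and 1368368_a_at (r = 0.76) without it. Among the 20 nearest of 3 members each were 1368335_at, 1390026_at, 1387279_at, 1371530_at, 1368368_a_at and 1369286_at, and of 2 members 1373767_at, 1388155_at, 1374385_at and 1386947_at. Without the acetaminophen comparison 1368335_at, 1368368_a_at and 1369286_at were still near 3 members, and 1386947_at was near 3. Without it 1390026_at, 1387279_at and 1371530_at were near 2, 1373767_at and 1388155_at near 1, and 1374385_at near 0. The highest of their correlations with any member was 0.83 (1374385_at with Hsph1), which fell to 0.53 without the acetaminophen comparison. The files used here give no gene for these probe sets.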

How the data were processed

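The deposited values were log2 expression levels made by the authors, 1 per probe set and array. The submitters' processing notes name RMA, with version and array set not given in the sources used here. The 57 control probe sets served only for array checks. Calculations used R 4.3.3 with limma 3.58.1, and Python 3.11.15. For each compound limma (lmFit, eBayes) was fitted to treated minus control differences within dishes, all concentrations in 1 fit, with Benjamini-Hochberg adjustment over 31042 probe sets and calls at an adjusted p under 0.05. Every SE is limma's moderated error. Classes were fitted on 1 value per compound. The dish pairing comes from the design text. In the values it was weak, with mean correlations of deviations of 0.0438 between arrays of the same number and -0.0195 between different numbers, and 9 of 84 comparisons with all pairs over 0.1. The fit was tried on simulated dish differences with independent normal noise of the same SD at each concentration. The simulation held no outlying arrays or array batches, so it does not show how the calls stand up to those. The number of arrays limits the precision. The members and lists were chosen with earlier results of these data known. Lists of other heat shock genes and of cell type markers could not be applied, because no table used here pairs probe sets with genes. Compounds were named for a member by its 5 largest called changes each way, and wherever at least 3 members were called in 1 direction. Alternatives left out the pairing, each replicate, arrays that stand apart and dishes of mixed array batch, and changed the normalization, the filter on dim probe sets, the moderation and the pooling of spread. Leaving out arrays that stand apart from the T0 comparison, the correlations and the likeness was chosen after seeing the data.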

Additional observations from a re-analysis of the deposited data

Results flagged for a closer look

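At the highest concentration, 3 of 10 sets of compounds (5 probe sets in the GT and NC classes) held a compound far from the others, by a gap to the nearest compound of more than 0.493 of the whole range. For 9 independent values from a normal distribution, chance does this in about 1 in 20 sets. The sets of a class share compounds and dishes, so they are not independent and 3 of 10 cannot be weighed against that rate. C.I Direct Black stood apart among the 9 GT compounds for 1368247_at, with -1.42 against -0.52 for the next compound (gap 0.570 of the range). Nifedipine stood apart among the 9 NC compounds for 1368247_at, with -1.98 against -0.75 for the next (gap 0.563), and for 1370912_at, with -1.95 against -0.72 (gap 0.556). The 2 nifedipine values are of the same gene pair and the same dishes. No cause was tested.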

How the results depend on the processing

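All 42 calls of treated against control kept their direction under 10 alternatives, and 12 were called under every one of them. The number of member falls was 39, and 27 to 42 under alternatives that keep all replicates, while leaving out 1 replicate number at a time, with fewer dishes, gave 21 to 35. The 3 rises became 1 after quantile normalization and 1 with trend and robust moderation, and 0 to 3 when a replicate number was left out. The 10 calls between the highest and the low concentration became 3 with trend and robust moderation and 1 to 12 when a replicate number was left out. With the spread pooled over compounds 7 concentration calls were made, none of them among these 10. Without the dish pairing (no replicate block) there were 34 falls, 2 rises and 9 concentration calls, and 33 of the 42 calls were kept. The spread pooled over compounds kept 21, and removing arrays that stand apart kept 41. The cause of the lost calls was not tested, beyond the smaller number of dishes. Class differences gave 0 calls in every setting, and the differences between controls and T0 moved by less than 1 SD. The tests on other heat shock genes were not run, since probe sets could not be paired with genes.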
